A study of Mus musculus with 12 samples.

Results

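Glycolysis and hypoxia response genes were followed in RNA libraries of lung Cx3cr1+ macrophages. The set held 35 genes, chosen by symbol: 18 encode enzymes of glycolysis or their direct regulators, 6 encode parts of the oxygen-sensing system, and 11 are known targets induced by low oxygen. All 35 symbols were found among the 52636 genes of the deposited count table. For the 1 symbol with more than 1 gene ID, the ID with the most counts was used. After a filter on low counts, 33 of the 35 were among the 16679 genes tested; Pgam1 and Ak4 were not.

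Glycolysis splits glucose into pyruvate in a series of enzyme steps and yields ATP without oxygen. Hypoxia-inducible factor (HIF) is a pair of proteins whose alpha subunit is hydroxylated by the EGLN enzymes when oxygen is present, then bound by VHL and degraded; when it persists, it binds DNA and raises transcription of most glycolytic enzymes. Macrophages that respond to inflammatory signals are known to raise glycolysis and HIF1A, while macrophages that respond to interleukin 4 are known for oxidative metabolism.

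The study measured bulk RNA from mouse lung macrophages in 3 groups of 4 libraries. The groups were saline-treated with the labelled genotype IL4Ra WT (saline WT), bleomycin-treated IL4Ra WT (bleomycin WT) and bleomycin-treated IL4Ra KO (bleomycin KO). Bleomycin is a drug that damages DNA and is given to mice as a model of lung fibrosis, and Il4ra encodes the alpha chain of the receptor for interleukins 4 and 13. No saline KO group is among the samples, so the deletion was compared with WT only after bleomycin. No label gives the age of the mice, the dose and time of bleomycin or the driver of the deletion. Whether each library came from a separate mouse is not labelled either, so p-values measure only how far the libraries spread, and part of that may be technical.

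Library totals ran from 60598 to 18051113 counts, and 3 libraries stood apart. Saline WT library 2 held the 60598 counts and 4830 detected genes, so that 3 counts were worth 32.4 CPM (counts per 1000000, with TMM scaling of the libraries), and a gene listed at 0 there could lie anywhere up to that level. Bleomycin WT library 4 had the lowest scaling factor (0.579) and a best rank correlation of 0.730 with any other library, and saline WT library 1, with 3534193 counts, reached 0.658. The leading results are therefore also given without saline WT 2 and bleomycin WT 4, in a fit on 10 libraries. The main ones are also given without saline WT 1. That library stayed in the fit on 10 libraries, and no fit left out all 3. The genotype label could not be checked on RNA: Il4ra stood at 235 to 473 CPM in the KO libraries and 138 to 626 in bleomycin WT, and its counts cover the whole gene, including parts a deletion may leave. All 11 macrophage markers were detected. Their summed levels were 16355 to 36958 CPM in saline WT, 33573 to 54700 in bleomycin WT and 51436 to 71589 in bleomycin KO. All 9 alveolar macrophage markers had lower fitted levels in both bleomycin groups than in saline WT. Markers of other cells were also present: 10 neutrophil markers summed to 2678 to 30006 CPM in the saline WT libraries, 568 to 1669 in bleomycin WT and 1226 to 1999 in bleomycin KO, and 8 lung epithelium markers to 1467 to 2347, 264 to 874 and 173 to 646 CPM. The 7 T and NK cell markers summed to 32.4 to 183, 216 to 399 and 252 to 430 CPM in the same order of groups. In bulk RNA, fewer cells of a type and less RNA per cell cannot be told apart.

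Many glycolytic enzymes have near-identical processed copies elsewhere in the genome, which makes their counts uncertain. Each 50-base window, the length of 1 read, of the main coding transcript of every member (GENCODE vM21, build GRCm38) was searched for in the transcripts of all other annotated genes. In lower glycolysis, a pair of enzymes had no coding window of their own: every one in Pgk1 (phosphoglycerate kinase) and Pgam1 (phosphoglycerate mutase) was found in other genes. Eno1, the enolase of most cells, shared 83.3% of its coding windows with 9 other genes and still kept unique stretches. Hk2, the inducible hexokinase, shared none. Windows of each kind show the difference, with bases counted from the transcript's first base; capitals mark the windows that no other annotated gene holds.
Pgam1, bases 576 to 625, in 3 other genes: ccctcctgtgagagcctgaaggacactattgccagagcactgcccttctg
Eno1, bases 843 to 892, in 5 other genes: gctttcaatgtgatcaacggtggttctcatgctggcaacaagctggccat
Eno1, bases 1075 to 1124, in no other gene: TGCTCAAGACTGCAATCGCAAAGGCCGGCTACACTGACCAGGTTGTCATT
Hk2, bases 1850 to 1899, in no other gene: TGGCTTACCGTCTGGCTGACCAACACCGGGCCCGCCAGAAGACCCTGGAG

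Pgk1 stood between 0 and 3.41 CPM and Pgam1 between 0 and 1.19 CPM in the 12 libraries, although both catalyse steps through which all glycolytic carbon passes. The annotated copies were as low: the 3 Pgk1 copies in the table summed to at most 0.0628 CPM in any library, and the 3 Pgam1 copies to at most 3.17 CPM. Gapdh, the glycolytic dehydrogenase outside the set, also had 100% of its coding windows in other genes and stood at 0 to 4.02 CPM. No label or file header says how reads matching more than 1 place were handled, so the low levels of these genes are not given here as low expression. Ak4 (78.1% of coding windows shared), Bnip3 (76.8%), Bnip3l (73.4%), Higd1a (68.2%), Pkm (52.9%), Gpi1 (40.9%) and Ldha (31.0%) were uncertain in part. Smaller shares were found in Aldoa (19.5%), Mxi1 (18.0%), Ndrg1 (16.7%), Hif1a (13.8%), Tpi1 (13.7%) and Ankrd37 (12.6%). The annotated Tpi1 copy in the table stood at 2.67 to 86.5 CPM, and the Eno1 pseudogenes summed to at most 28.2 CPM. By contrast, 16 of the 35 members had no shared window anywhere in their transcript.

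**Figure D1:**
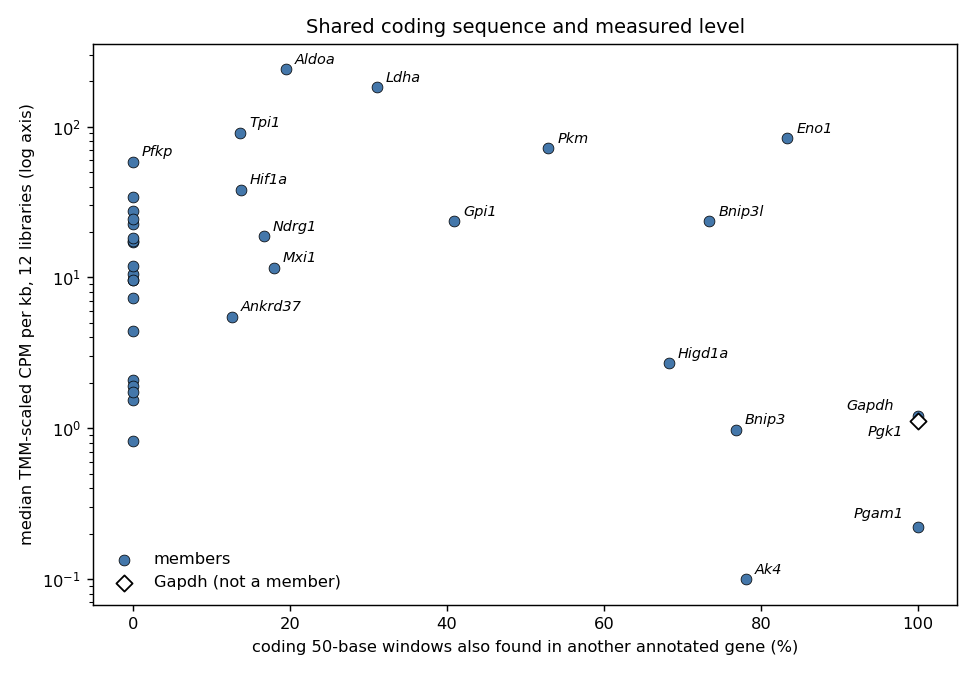
Share of each member's coding 50-base windows that also occur in another annotated gene (x axis, %) against its median level over the 12 libraries (y axis, TMM-scaled CPM per kilobase of exon, log scale); each point is 1 gene and the open diamond is Gapdh, which is not a member. Pgk1, Pgam1 and Gapdh, at 100%, lie near or below 1 CPM per kilobase, whereas Eno1, at 83.3%, lies at 84.0.

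The promoters of the set were searched for the core of the HIF binding site, ACGTG or GCGTG on either strand; where a site lies in CACGTG, it is also an E-box, the site of MYC, MXI1 and related factors. The RefSeq promoter table (GRCm38.p6) held 33 of the 35 members, with 54 starts; Bnip3l and Ndrg1 were not matched. In the 250 bases before the start, 42 of the 54 member starts (77.8%) held a core site, against 38.6% of all 32851 starts in the table. Member promoters were also richer in CpG, with a median of 16.5 CpG against 6, and GCGTG contains that dinucleotide, as does ACGTG. By gene, 29 of 33 members had a site before any start, among them all 9 hypoxia-induced targets in the table, and 41.5% of all gene symbols did. This count favours genes with several starts: the 33 members had 54 starts, whereas 27025 symbols had 32851. A match is a run of letters and says nothing on whether HIF binds there in these cells.

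The sequences below are the 4 hypoxia-induced targets with the most core sites, followed by 3 members whose libraries separated between groups in the results. These 3 were picked after the values had been seen, and Eno1, which also separated, is not shown. Each sequence is the 250 bases before a RefSeq start, on the gene's strand, with core sites in capitals. Where a hypoxia-induced target had several starts, the one with the most sites was taken. Bnip3 (mitophagy receptor; chr7:138909507-138909756, minus strand) held 4 sites, of which 1 is an E-box. Ankrd37 (an ankyrin-repeat protein; chr8:45999851-46000100, minus), P4ha1 (chr10:59323046-59323295, plus) and P4ha2 (chr11:54100674-54100923, plus), the last pair encoding collagen prolyl hydroxylases, held 3 each. Hk2 (chr6:82774455-82774704, minus) held 2, Ldha (chr7:46845554-46845803, plus) held 3 with 2 E-boxes, and Egln3 (chr12:54203875-54204124, minus) held 1, which began 229 bases before the start.
Bnip3: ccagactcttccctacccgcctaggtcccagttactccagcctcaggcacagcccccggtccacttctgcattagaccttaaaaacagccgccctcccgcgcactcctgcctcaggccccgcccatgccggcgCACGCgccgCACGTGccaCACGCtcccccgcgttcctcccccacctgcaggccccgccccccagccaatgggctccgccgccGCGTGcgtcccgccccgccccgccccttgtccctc
Ankrd37: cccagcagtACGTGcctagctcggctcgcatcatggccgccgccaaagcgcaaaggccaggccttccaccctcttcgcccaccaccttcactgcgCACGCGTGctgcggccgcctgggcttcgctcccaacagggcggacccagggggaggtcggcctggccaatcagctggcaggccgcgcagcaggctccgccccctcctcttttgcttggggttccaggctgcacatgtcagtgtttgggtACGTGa
P4ha1: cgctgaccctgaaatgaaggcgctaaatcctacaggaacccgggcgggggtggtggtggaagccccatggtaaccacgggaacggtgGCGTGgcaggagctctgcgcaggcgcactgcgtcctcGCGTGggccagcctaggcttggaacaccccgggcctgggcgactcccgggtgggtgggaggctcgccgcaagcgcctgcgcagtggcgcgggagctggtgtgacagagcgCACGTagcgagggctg
P4ha2: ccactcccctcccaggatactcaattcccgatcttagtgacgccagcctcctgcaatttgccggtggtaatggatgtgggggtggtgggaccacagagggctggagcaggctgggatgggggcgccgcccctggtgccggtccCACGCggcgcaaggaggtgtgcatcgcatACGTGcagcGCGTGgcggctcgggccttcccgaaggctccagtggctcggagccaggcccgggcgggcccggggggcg
Hk2: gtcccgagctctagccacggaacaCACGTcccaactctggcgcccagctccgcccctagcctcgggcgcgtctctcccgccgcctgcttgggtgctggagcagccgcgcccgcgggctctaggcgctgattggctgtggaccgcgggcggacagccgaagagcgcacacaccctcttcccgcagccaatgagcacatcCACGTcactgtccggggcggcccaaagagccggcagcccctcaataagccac
Ldha: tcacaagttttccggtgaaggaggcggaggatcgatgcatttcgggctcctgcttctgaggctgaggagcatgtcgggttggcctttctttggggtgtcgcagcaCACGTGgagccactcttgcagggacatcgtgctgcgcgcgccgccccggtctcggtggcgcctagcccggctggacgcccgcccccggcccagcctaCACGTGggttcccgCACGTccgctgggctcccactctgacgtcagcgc
Egln3: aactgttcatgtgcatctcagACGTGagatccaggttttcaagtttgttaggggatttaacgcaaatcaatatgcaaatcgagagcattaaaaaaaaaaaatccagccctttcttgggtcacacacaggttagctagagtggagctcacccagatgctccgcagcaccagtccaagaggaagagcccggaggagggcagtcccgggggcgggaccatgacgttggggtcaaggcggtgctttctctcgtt

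Levels were compared between members per kilobase of exon. Aldoa, the aldolase of muscle and most other cells, was highest with a median of 239 CPM per kb over the 12 libraries. Ldha, which turns pyruvate into lactate, followed at 183, then Tpi1 (triose phosphate isomerase) at 91.1, Eno1 at 84.0, Pkm (pyruvate kinase) at 72.0 and Pfkp (platelet-type phosphofructokinase) at 58.6 CPM per kb. Among regulators, Hif1a, the oxygen-controlled HIF subunit, reached 38.1, Pfkfb4, which sets the phosphofructokinase activator fructose-2,6-bisphosphate, 34.0, and Egln2, an oxygen-sensing hydroxylase, 27.6. The hypoxia-induced targets spanned a wide range. P4ha1 had a median of 24.5 CPM per kb, Bnip3l 23.6, Ndrg1 18.7, Kdm3a 17.2 and Mxi1 11.6. The others were lower: Ankrd37 had a median of 5.48, Higd1a 2.69, Adm (adrenomedullin) 2.10, Bnip3 0.979, P4ha2 0.826 and Ak4 (adenylate kinase 4) 0.0996 CPM per kb. Bnip3 and Ak4 are among the genes whose windows are shared, whereas Adm and P4ha2 share none.

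**Figure D2:**
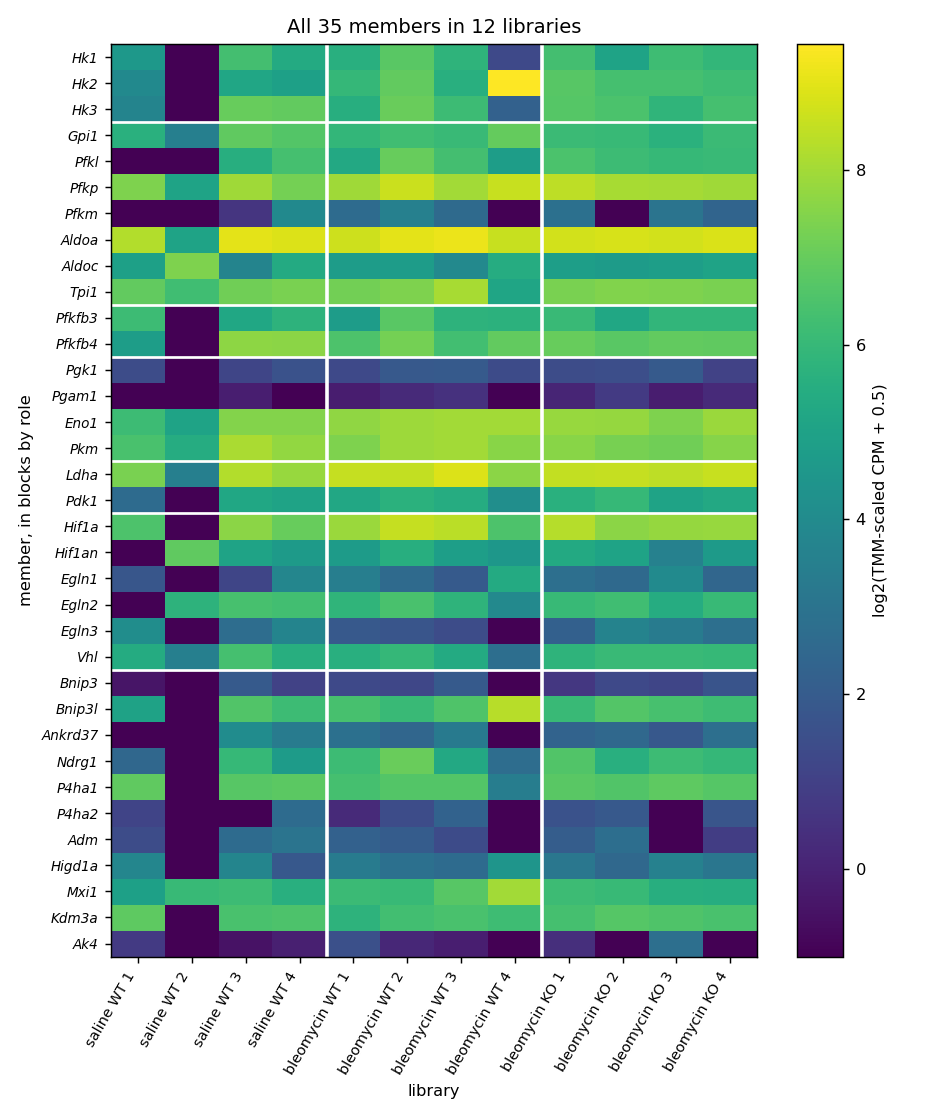
Level of all 35 members (rows, in blocks by role) in the 12 libraries (columns), as log2 of TMM-scaled CPM + 0.5; white lines separate roles and groups. Saline WT 2 is dark in most rows at its low depth, Pgk1 and Pgam1 are dark in all libraries, and bleomycin WT 4 stands out with high Hk2, Bnip3l and Mxi1.

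The first comparison asked how these genes differ in WT macrophages after bleomycin. No member passed the test (quasi-likelihood test of edgeR, p-values adjusted by Benjamini-Hochberg over 16679 genes), and hardly any gene did: 4 genes, or 0.0240% of those tested, were called. At an unadjusted p under 0.05 stood 3 of 33 members, against 14.7% of all genes. Of the 33 members, 21 had a higher fitted level after bleomycin, against 52.9% of all genes, and the median log2 fold change was 0.32 against 0.08 for all genes. For 2 members, Hk2 and Eno1, the lowest bleomycin WT library was above the highest saline WT library, and 4.93% of all genes did so; none lay below, against 0.929%. DESeq2 called 1 member, Hk2, and 588 genes (3.31%), and edgeR without the low-count filter called Hk2 and 780 genes (1.91%). limma-voom called no member and 6 genes (0.0360%), or 319 genes (1.91%) with library quality weights. In simulated counts edgeR called only 5% of genes changed 4-fold in this comparison, so a missing call does not mean no change.

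Hexokinases trap glucose in the cell by phosphorylating it, and Hk2 (ENSMUSG00000000628, chr6:82725025-82774454, minus strand) had the largest difference of the set. Its level in the saline WT libraries was 15.1, 0, 35.3 and 29.8 CPM, in bleomycin WT 61.9, 120.0, 48.2 and 694.0 CPM, and in bleomycin KO 107.0, 81.3, 80.8 and 72.0 CPM. Every library after bleomycin was above every saline library, and bleomycin WT 4 was far above the next. The log2 fold change of bleomycin WT against saline WT was 3.32 ± 0.85 (SE), with an adjusted p of 0.201 by edgeR. An exact two-sided permutation test gave 0.0286, the smallest p that 4 against 4 libraries allow. Of 105 such tests, 35 members in 3 comparisons, 5 reached it. Any gene whose 4 libraries all lie above the other 4 gets this p, so it only restates the separation, here and below. DESeq2, with bleomycin WT 4 included, gave 3.15 with an adjusted p of 0.00721. limma-voom gave 2.26 ± 0.85 (adjusted p = 0.270), and 1.10 ± 0.47 (adjusted p = 0.235) with library quality weights. Without saline WT 2 and bleomycin WT 4, the edgeR log2 fold change was 1.50 ± 0.40, at an adjusted p of 0.139. Hk1, the hexokinase of most tissues, and Hk3, typical of myeloid cells, had log2 fold changes of 0.45 ± 0.87 and -0.15 ± 0.90.

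In upper glycolysis, Pfkp (ENSMUSG00000021196, chr13:6579768-6648777, minus), a subunit of phosphofructokinase 1 at the committed step, stood at 171, 32.4, 249 and 154 CPM in saline WT. It stood at 247, 392, 255 and 377 CPM in bleomycin WT and at 338, 271, 262 and 246 CPM in bleomycin KO. The groups overlapped by 1 library, saline WT 3, and the log2 fold change of bleomycin WT against saline WT was 1.02 ± 0.49 (adjusted p = 0.345, edgeR). Aldoa (ENSMUSG00000030695, chr7:126795234-126800751, minus) was 299, 32.4, 518 and 477 CPM in the saline WT libraries, 397, 512, 568 and 375 CPM in bleomycin WT and 420, 448, 425 and 457 CPM in bleomycin KO. Its groups overlapped widely (log2 fold change 0.46 ± 0.54). The other 5 upper enzymes, Gpi1, Pfkl, Pfkm, Aldoc and Tpi1, had log2 fold changes between -1.01 (Aldoc, the brain-type aldolase) and 0.95 (Pfkl, the liver-type subunit), all with overlapping libraries. Aldoc was 173 CPM in saline WT 2, from 16 counts, and its log2 fold change was -0.32 ± 0.44 without the 2 libraries; Gpi1 turned from 0.17 to -0.40, and Pfkp and Aldoa were 0.61 ± 0.25 and 0.17 ± 0.22.

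Pfkfb4 (ENSMUSG00000025648, chr9:108991778-109032228, plus) was 27.5, 0, 204 and 197 CPM in the saline WT libraries, 91.5, 154, 76.3 and 120 CPM in bleomycin WT and 129, 110, 121 and 117 CPM in bleomycin KO. The saline libraries spanned both bleomycin groups, with a log2 fold change of -0.03 ± 0.72. Saline WT 3 and 4, which had the highest Pfkfb4, also had the highest neutrophil marker sums, 30006 and 18301 CPM; the part of neutrophils in this gene was not tested. Its partner Pfkfb3, the inducible isoenzyme, had a log2 fold change of 0.45 ± 0.66.

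Among the lower enzymes, Eno1 (ENSMUSG00000063524, chr4:150236721-150248879, plus) stood at 71.3, 32.4, 183 and 183 CPM in the saline WT libraries, 206, 239, 251 and 253 CPM in bleomycin WT and 226, 222, 173 and 230 CPM in bleomycin KO. Every bleomycin WT library was above every saline one, and 1 KO library was not. The log2 fold change was 0.96 ± 0.49 (adjusted p = 0.375, edgeR; exact permutation p = 0.0286), and 0.65 ± 0.31 (adjusted p = 0.372) without saline WT 2 and bleomycin WT 4. Pkm had a log2 fold change of 0.41 ± 0.51.

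At the fate of pyruvate, Ldha (ENSMUSG00000063229, chr7:46841475-46855627, plus) was 161, 10.8, 305 and 224 CPM in the saline WT libraries, 371, 355, 478 and 197 CPM in bleomycin WT and 356, 368, 339 and 379 CPM in bleomycin KO. Bleomycin WT 4 lay among the saline libraries and the other 3 above them, and the log2 fold change was 0.95 ± 0.58 (adjusted p = 0.456, edgeR). Without saline WT 2 and bleomycin WT 4 it was 0.78 ± 0.23, at an adjusted p of 0.180, with no overlap. Pdk1, a kinase that inhibits pyruvate dehydrogenase, had a log2 fold change of 0.79 ± 0.71.

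In oxygen sensing, Hif1a (ENSMUSG00000021109, chr12:73901375-73947530, plus) stood at 91.9, 0, 197 and 127 CPM in the saline WT libraries, 237, 364, 331 and 92.6 CPM in bleomycin WT and 311, 195, 218 and 228 CPM in bleomycin KO. As for Ldha, bleomycin WT 4 was the low library of its group. The log2 fold change was 1.22 ± 0.67 (adjusted p = 0.406, edgeR), and 1.14 ± 0.29 (adjusted p = 0.130) without saline WT 2 and bleomycin WT 4, where all 3 bleomycin WT libraries lay above the saline ones. HIF1A is controlled mainly as a protein, which these RNA counts do not measure. Egln3 (ENSMUSG00000035105, chr12:54178981-54203860, minus), itself a hydroxylase of HIF and a known HIF target, had the opposite sign. It was 16.8, 0, 6.05 and 12.6 CPM in the saline WT libraries, 3.30, 2.90, 2.19 and 0 CPM in bleomycin WT and 4.14, 12.4, 9.52 and 6.61 CPM in bleomycin KO. Only saline WT 2, at its low depth, lay at or below the bleomycin WT libraries. The log2 fold change of bleomycin WT against saline WT was -2.26 ± 1.01 (adjusted p = 0.325, edgeR), and -2.10 ± 0.64 (adjusted p = 0.187) without the 2 libraries. The hydroxylases Egln1, Egln2 and Hif1an and the ubiquitin ligase subunit Vhl had log2 fold changes of 1.49 ± 0.97, -0.03 ± 0.98, -0.27 ± 1.06 and -0.30 ± 0.65. Without the 2 libraries Egln1 was 0.12 ± 0.85 and Hif1an turned to 0.78 ± 1.04.

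Of the hypoxia-induced targets, 10 of 11 were tested, 5 with a higher and 5 with a lower fitted level after bleomycin, and their median log2 fold change was 0.00. Bnip3l (ENSMUSG00000022051, chr14:66985239-67008877, minus), a receptor that removes mitochondria, was 32.1, 0, 96.8 and 70.1 CPM in the saline WT libraries, 83.0, 66.3, 94.9 and 318 CPM in bleomycin WT and 66.8, 101, 84.3 and 71.9 CPM in bleomycin KO. Mxi1 (ENSMUSG00000025025, chr19:53310518-53375810, plus), a repressor that opposes MYC, was 30.4, 64.9, 70.4 and 47.4 CPM in the saline WT libraries, 68.6, 64.8, 105 and 254 CPM in bleomycin WT and 70.2, 65.8, 46.7 and 45.0 CPM in bleomycin KO. In both genes bleomycin WT 4 was far above the rest of its group and the groups overlapped. Mxi1 had a log2 fold change of 1.23 ± 0.56 (adjusted p = 0.328, edgeR), and 0.67 ± 0.35 (adjusted p = 0.409) without the 2 libraries; Bnip3l had 1.38 ± 0.70 (adjusted p = 0.378), and 0.28 ± 0.36 (adjusted p = 0.747) without them. Ndrg1, a stress-response gene, had 1.20 ± 0.88, and the histone demethylase gene Kdm3a -0.12 ± 0.61.

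Leaving out saline WT 2 and bleomycin WT 4 gave a fit on 10 libraries in which 34 members were tested among 18812 genes. It called no member, while 81 genes (0.431%) passed, and 4 of 33 members had another sign than in the 12 libraries: Gpi1, Hif1an, Egln2 and Higd1a. In that fit 5 members had an unadjusted p under 0.05, against 14.0% of all genes. In 6 members every bleomycin WT library exceeded every saline one (Hk2, Pfkp, Eno1, Ldha, Pdk1 and Hif1a), against 10.9% of all genes, and below them for 3 (Egln3, P4ha1 and Kdm3a), against 9.72%.

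Without saline WT 1, the other library with a low rank correlation, no member was called in any comparison. The log2 fold changes of bleomycin WT against saline WT were then 3.14 for Hk2 (adjusted p = 0.296, edgeR), 0.79 for Eno1, 0.91 for Ldha, 1.16 for Hif1a and -1.86 for Egln3.

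**Figure D3:**
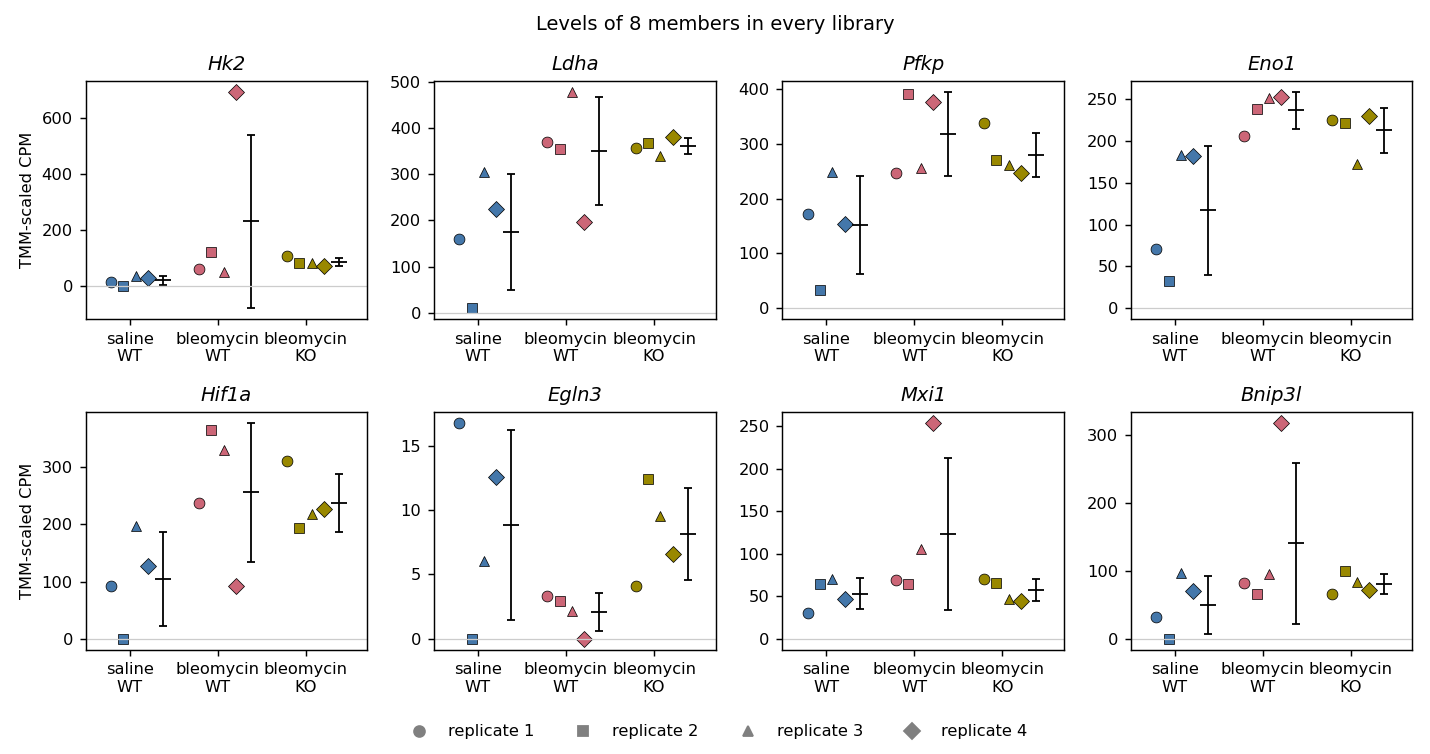
TMM-scaled CPM (y axes, linear, each with its own range) of 8 members in the 3 groups of 4 libraries; each symbol is 1 library, symbols mark the replicate number only, and the bar beside each group is the mean ± SD. Hk2 is 48.2 to 694.0 in bleomycin WT and at most 35.3 in saline WT, bleomycin WT 4 is the high point in Hk2, Mxi1 and Bnip3l, and Egln3 is higher in every KO library than in every bleomycin WT library.

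The second comparison asked how the genes differ with the labelled Il4ra deletion after bleomycin. No member and no gene (0%) passed the edgeR test in bleomycin KO against bleomycin WT. At an unadjusted p under 0.05 stood 0 of 33 members, against 3.88% of all genes, and neither DESeq2 (1 gene called, 0.00253%), limma-voom (0 genes, with or without quality weights) nor edgeR without the filter (243 genes, 0.596%) called a member. Fitted levels were higher in KO for 17 of 33 members, against 49.3% of all genes, and the median log2 fold change was 0.04 against -0.01. These fold changes share the bleomycin WT libraries with those of the first comparison, with opposite sign.

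Egln3 was the only member whose libraries separated the 2 genotypes. All 4 KO libraries, at 4.14 to 12.4 CPM, were above the 4 bleomycin WT libraries, at 0 to 3.30 CPM, and 0.905% of all genes separated in that direction; no member separated downwards, against 0.594%. Its log2 fold change was 1.94 ± 0.99 (95% interval -0.29 to 4.17), at an adjusted p of 0.9998 by edgeR. The exact permutation p of 0.0286 restates the separation and adds no support of its own. Without saline WT 2 and bleomycin WT 4 the log2 fold change was 1.56 ± 0.60 (adjusted p = 0.9999, edgeR). The KO libraries were again all higher, which 1.36% of all genes were. No member was lower in all, against 1.82%. Egln3 was the 1 of 34 members with an unadjusted p under 0.05 there, against 0.920% of all genes.

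For the enzymes, the interval of the difference between KO and WT included 0. Ldha had a log2 fold change of 0.04 ± 0.58, with a 95% interval of -1.26 to 1.34. Hif1a had -0.11 ± 0.66 (-1.61 to 1.39), Eno1 -0.16 ± 0.48 (-1.25 to 0.93), Pfkp -0.19 ± 0.48 (-1.27 to 0.90) and Aldoa -0.08 ± 0.54 (-1.31 to 1.15). Hk2 was -1.44 ± 0.78, and the sign turned on 1 library: it was 0.13 without bleomycin WT 4 and 0.16 without saline WT 2 as well. Mxi1 was -1.11 ± 0.54 (-2.34 to 0.12) and Bnip3l -0.80 ± 0.69, and without those 2 libraries they were -0.48 ± 0.32 and 0.00 ± 0.34. Vhl, the partner of the hydroxylases, was 47.3, 61.2, 41.8 and 6.40 CPM in bleomycin WT and 54.8, 67.8, 66.3 and 63.0 CPM in bleomycin KO, with a log2 fold change of 0.68 ± 0.65 and overlapping libraries.

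The SD was smaller in bleomycin KO than in bleomycin WT for 28 of 33 members, and for 23 when bleomycin WT 4 was left out. The same count over all genes was not made, so this is not given as a trait of the members. Over the 4 KO libraries, the SD was 17.3 CPM at a mean of 360 for Ldha, 17.7 at 437 for Aldoa, 8.26 at 119 for Pfkfb4 and 6.96 at 167 for Tpi1. In bleomycin WT the SDs of the same genes were 116, 92.2, 34.4 and 95.1 CPM, and 67.1, 87.1, 41.3 and 62.5 CPM without library 4. The exceptions over all libraries were Pgk1, Hif1an, Egln3, Adm and Eno1, the last with 26.6 CPM in KO and 22.0 CPM in bleomycin WT. The spread of the groups was not compared by a test, and bleomycin WT contains a library that stood apart.

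In the third comparison, bleomycin KO against saline WT, the saline libraries are those of the first comparison, and the values are given side by side rather than as a repeat. No member passed the edgeR test and 3 genes (0.0180%) did; 1 of 33 members, Hk2, had an unadjusted p under 0.05, against 9.03% of all genes. Fitted levels were higher in KO for 24 of 33 members, against 51.7%, with a median log2 fold change of 0.23 against 0.04 for all genes. In 2 members, Hk2 and Ldha, all KO libraries lay above all saline libraries, against 8.17% of all genes, and none lay below, against 1.04%. Hk2 had a log2 fold change of 1.88 ± 0.81 (adjusted p = 0.516, edgeR; exact permutation p = 0.0286), beside 3.32 in the first comparison. Without saline WT 2 and bleomycin WT 4 the pair was 1.66 ± 0.38 (adjusted p = 0.0874) and 1.50. Ldha had 0.99 ± 0.58 (adjusted p = 0.663; exact permutation p = 0.0286) beside 0.95, Pfkp 0.84 ± 0.49 (adjusted p = 0.659) beside 1.02, Hif1a 1.12 ± 0.67 (adjusted p = 0.674) beside 1.22, and Eno1 0.81 ± 0.49 (adjusted p = 0.674) beside 0.96, all by edgeR. In the 10 libraries, Hk2, Pfkp and Ldha were the 3 members whose KO libraries all lay above the saline ones, against 8.14% of all genes; below them lay none, against 7.89%. There 4 of 34 members had an unadjusted p under 0.05, against 16.8% of all genes, and none was called, against 0.643%. No member was called in the 12 libraries by DESeq2 (3.38% of genes), limma-voom (0.0719%, or 1.39% with quality weights) or edgeR without the filter (1.70%).

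**Figure D4:**
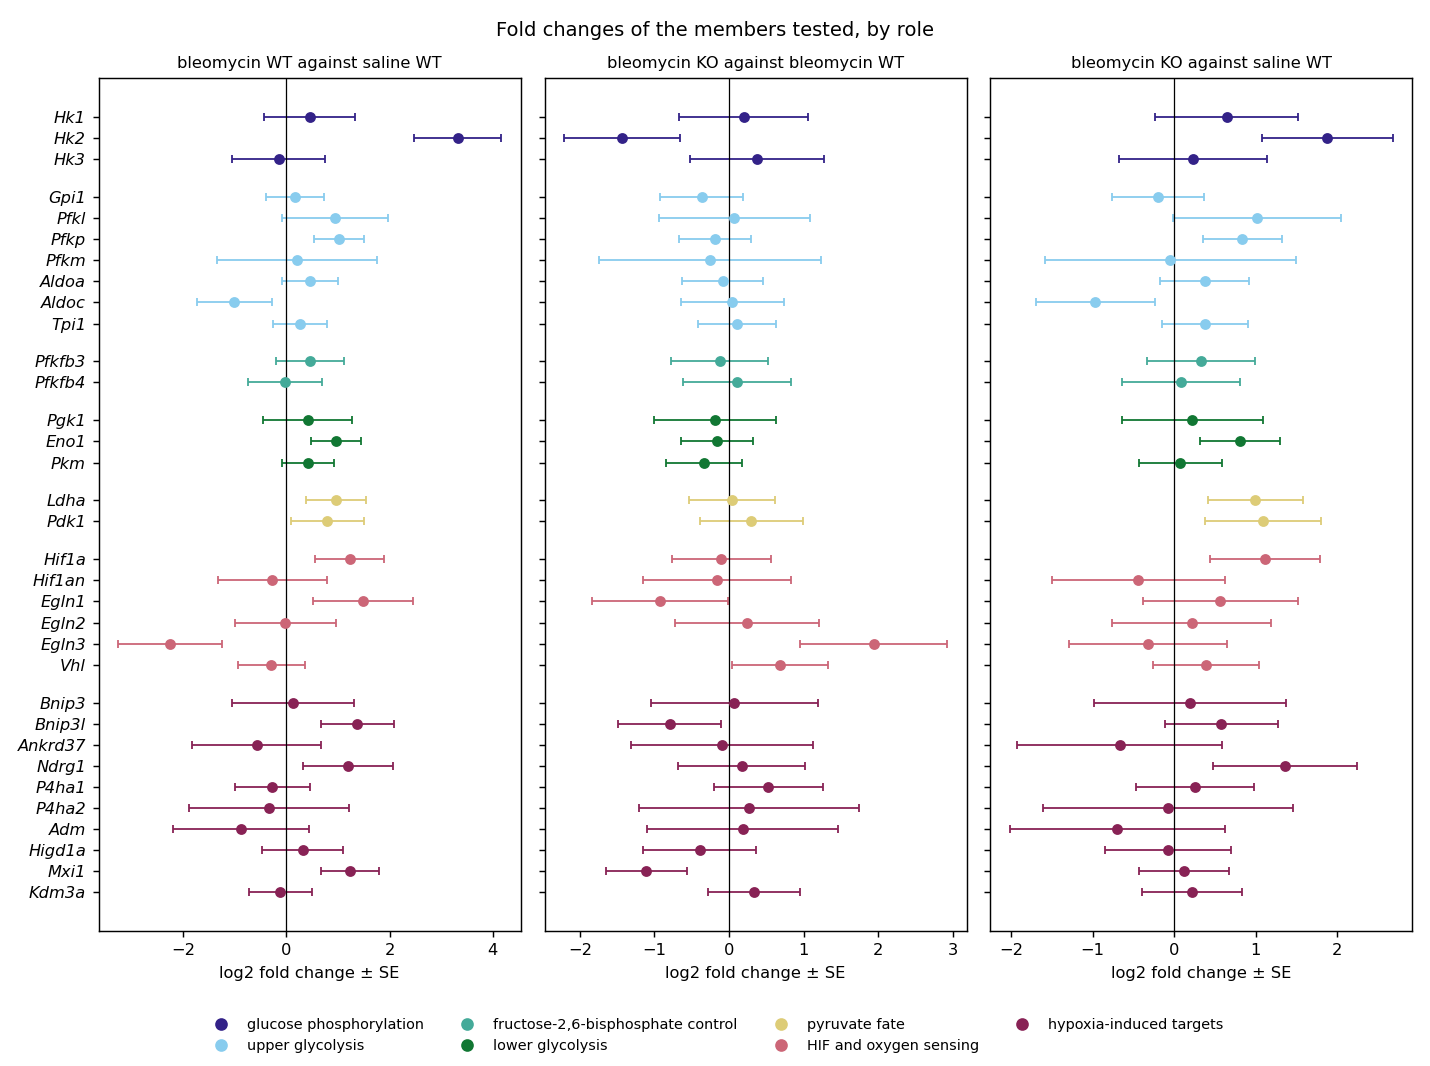
log2 fold change ± SE (x axes) of the 33 members tested, in rows coloured by role, in the 3 comparisons of edgeR's fit on all 12 libraries; the comparisons share groups. Most bars reach or cross 0, Hk2 is farthest to the right in both comparisons with saline WT, and Egln3 lies left of 0 in bleomycin WT against saline WT (-2.26) and right of it in KO against WT (1.94).

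Several genes encode the same step, so the make-up of 4 enzyme families was also measured, as each gene's share of the family's counts per exon base; this measure was chosen after the values had been seen. Shares do not depend on the scaling of libraries. Saline WT 2 had under 20 counts in each family and was left out. Of 30 tests, the smallest p the design allows (0.0286, exact two-sided permutation) was reached 3 times, each with a Benjamini-Hochberg adjusted p of 0.286.

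Among hexokinases, Hk2 made up 23.8, 10.4 and 10.6% in the 3 saline WT libraries, 31.7, 25.5, 21.0 and 98.7% in bleomycin WT, against 28.8, 30.2, 31.0 and 26.0% in bleomycin KO. All KO libraries were above all saline libraries, at 29.0 ± 2.21% (SD, n = 4) against 14.9 ± 7.71% (n = 3), whereas bleomycin WT, at 44.2 ± 36.5%, overlapped saline WT and depended on bleomycin WT 4. Hk3 had 33.5, 63.0 and 72.7% in saline WT 1, 3 and 4, 39.9, 47.5, 51.3 and 1.01% in bleomycin WT and 46.5, 55.8, 36.5 and 48.8% in the KO libraries. The 2 highest shares were in the libraries with the highest neutrophil marker sums, and Hk3 was also above Hk2 in every other library measured except bleomycin WT 4; the part of neutrophils in this share was not tested. Pfkp made up most of phosphofructokinase 1 in each group, with 79.6 ± 21.7% in saline WT, 79.1 ± 10.3% in bleomycin WT, against 75.6 ± 1.01% in bleomycin KO. The muscle subunit Pfkm was at most 8.08% in every library. Pfkfb4 exceeded Pfkfb3 in all libraries measured except saline WT 1, where Pfkfb3 made up 62.1%.

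Among the HIF prolyl hydroxylases, Egln2 was the main transcript, at 83.7 ± 8.25% in bleomycin KO and 77.4 ± 27.4% in bleomycin WT. Exceptions were saline WT 1, where Egln3 made up 88.6% of a family with 81 counts, and bleomycin WT 4, where Egln1 made up 63.5%. The Egln3 share was 4.17, 2.61, 3.11 and 0% in bleomycin WT, 4.69, 11.5, 12.9 and 7.40% in bleomycin KO and 88.6, 5.55 and 10.9% in saline WT. Every bleomycin WT library was thus below every KO and every saline library, with both adjusted p-values at 0.286 by the exact permutation test.

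**Figure D5:**
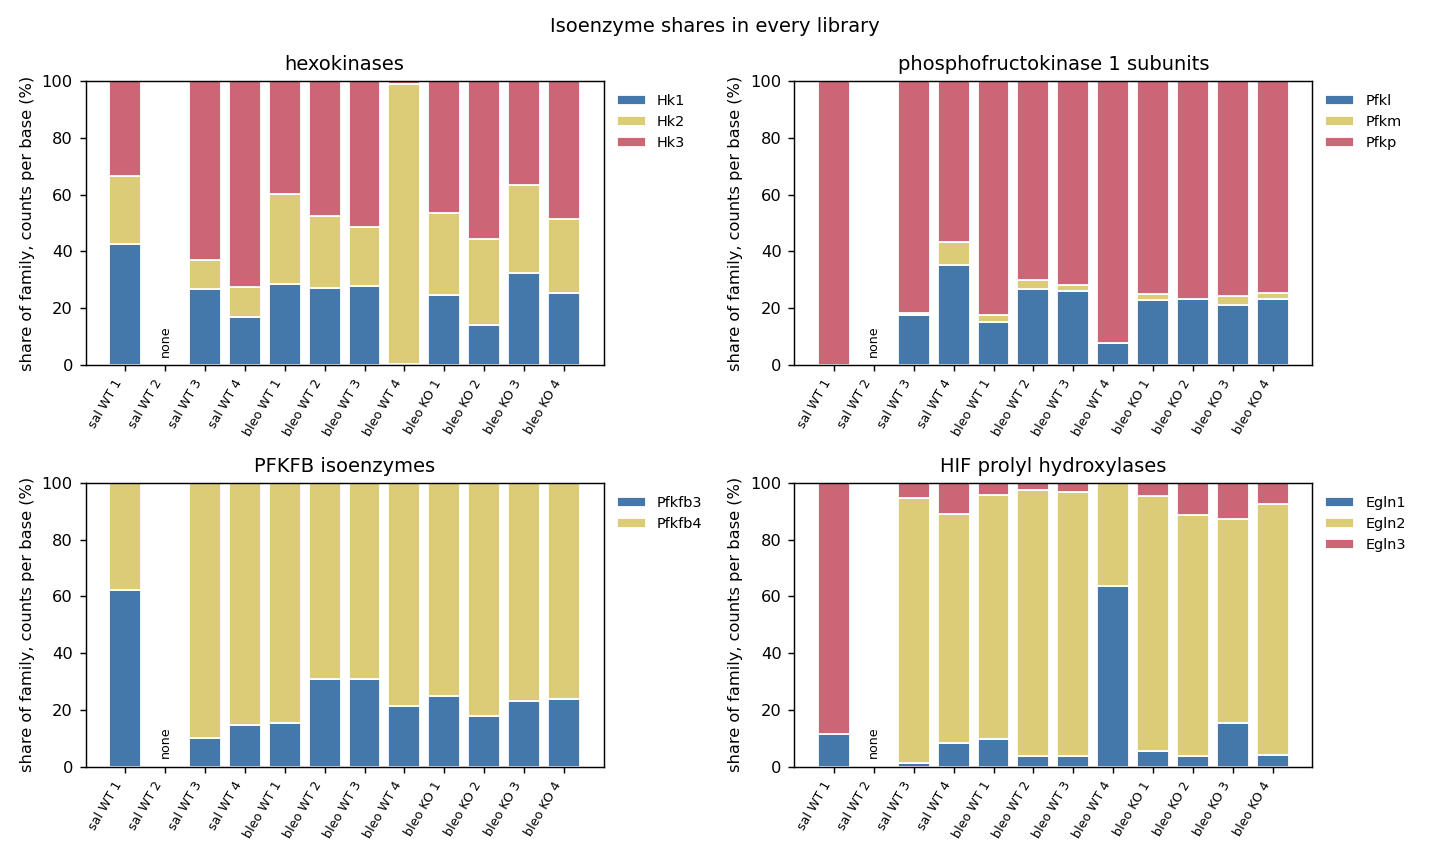
Share (y axes, %, from 0 to 100) of each gene in the counts per exon base of 4 enzyme families, stacked for each library (x axes); saline WT 2 held under 20 counts per family and is marked none. Hk2 is 98.7% of hexokinase in bleomycin WT 4 and at most 31.7% elsewhere, and Egln2 makes up most of the prolyl hydroxylases in all but saline WT 1 and bleomycin WT 4.

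Other genes of the same pathways were taken from 6 lists with 83 genes, of which 76 were tested. None passed the edgeR test in any comparison; 7, 2 and 6 of the 76 had an unadjusted p under 0.05 in bleomycin WT against saline WT, KO against WT and KO against saline WT, against 14.7%, 3.88% and 9.03% of all genes. The smallest p-values of the first comparison belonged to 3 genes of sugar use with lower fitted levels after bleomycin. Slc2a3, a high-affinity glucose transporter, averaged 229 ± 227 CPM (SD, n = 4) in saline WT, 38.6 ± 13.2 in bleomycin WT, against 45.6 ± 14.3 in bleomycin KO. The lactate exporter Slc16a3 averaged 530 ± 492 CPM in saline WT against 115 ± 62.8 in bleomycin WT, and Eno3, the muscle enolase, 92.9 ± 69.5 and 12.1 ± 5.01 CPM. Their log2 fold changes in bleomycin WT against saline WT were -2.61 ± 0.83, -2.22 ± 0.73 and -2.96 ± 0.74, with adjusted p-values of 0.227, 0.232 and 0.201 by edgeR.

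All 3 genes were highest in saline WT 3 and 4. Slc2a3 was 468 and 375 CPM there and at most 74.2 CPM in every other library, Slc16a3 was 1069 and 827 CPM against at most 196, and Eno3 174 and 121 CPM against at most 64.9. The same 2 libraries had the highest neutrophil sums, and the part of these cells in the 3 genes was not tested. Slc2a1, the main inducible glucose transporter, overlapped in all comparisons. In KO against WT the smallest unadjusted p-values belonged to Pdp2 (a phosphatase of pyruvate dehydrogenase), Crebbp (a HIF co-activator) and Vegfa (vascular growth factor, a HIF target), each of which was highest in bleomycin WT 4, at 427, 714 and 389 CPM. Epas1, which encodes the HIF2 alpha subunit, averaged 11.9 ± 9.61 CPM in bleomycin KO and 92.6 ± 119 CPM in saline WT, where saline WT 2 alone stood at 270.2 CPM; its log2 fold change was -2.81 ± 0.88 (adjusted p = 0.331, edgeR), with all KO libraries below all saline libraries.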

How the data were processed

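The authors deposited 1 table of raw counts (whole numbers, 1 row per Ensembl gene) for 12 libraries of lung macrophage RNA; symbols and exonic sizes came from the same deposit. Per the labels' protocols, cDNA was made from 2 ng of RNA with the SMART-Seq v4 kit, and single-end reads of 50 bases were sequenced after Nextera XT tagmentation; the kit does not mark strand. The submitters' processing notes name GSNAP, limma, Partek, GRCm38 and mm10, without versions or settings. A design text about cultured cells, attached to the series, concerns other samples and was set aside.

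Counts were scaled by TMM to CPM and tested with edgeR 4.0.16, under R 4.3.3 (low counts removed by filterByExpr, robust quasi-likelihood fit on all 12 libraries, group as the only term, Benjamini-Hochberg adjusted p under 0.05 over all genes tested). The standard error is |log2 fold change| over the root of the F statistic, and 95% intervals use 9 residual degrees of freedom. Exact permutation tests used log2(CPM + 0.5). DESeq2 1.42.0, limma-voom (limma 3.58.1), other filters and scaling, a replicate block and left-out libraries were alternatives. The library pair most alike differed with a chi-square of 18.6 per degree of freedom, more than counting error of 1 library sequenced again would give. Whether any libraries shared a mouse or an RNA sample cannot be told from this. The edgeR fit was tested on simulated counts, in which 100 genes were changed 4-fold and 100 genes 16-fold. Of the 4-fold changes it called 5% in bleomycin WT against saline WT, 15% in KO against WT and 9% in KO against saline WT. Of the 16-fold changes it called 83%, 86% and 79%. Only genes above a set average level were changed, some up and some down. A member above that level changed 4-fold would thus mostly be missed. Members with low counts, such as Egln3, lie below it and are not described by these rates. The DESeq2 and limma-voom fits were not simulated. Intervals cover counting error and library spread only.

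Values in every library are given for the member with the highest mean CPM of each role, members past the threshold or with no overlap of libraries between groups, and the 3 members with the smallest p in each comparison; of other pathway genes, the 3 with the smallest p. The members, gene lists and markers were chosen with earlier results of these data known.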

Additional observations from a re-analysis of the deposited data

Results flagged for a closer look

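In 3 of 30 groups of 4 libraries, 1 library lay far from the others by Dixon's test. Chance does so in about 1 of 20 groups, but these rates cannot be compared here. The genes were named partly for a high mean, which 1 high library raises, and Hk2 and Bnip3l were flagged in the same library. Hk2 in bleomycin WT was 694.0 CPM in library 4, and the next library stood at 120.0 CPM. Bnip3l in bleomycin WT was 318 CPM, again in library 4, and the next stood at 94.9 CPM. Eno1 in bleomycin KO was 173 CPM in library 3, below the next at 222 CPM. Bleomycin WT 4 also had the lowest scaling factor, 0.579, and the highest summed endothelium markers of any library, 705 CPM against 54.0 to 380 CPM elsewhere. The part of these in its high values was not tested.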

How the results depend on the processing

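Hk2 in bleomycin WT against saline WT was the 1 member that any alternative called. DESeq2 gave 1 called member (588 genes in all). The edgeR fit with no low-count filter gave 1 (adjusted p = 0.00125, with 780 genes, or 1.91%). Both fits included bleomycin WT 4, and neither was repeated without it. No member was called in the other comparisons under any alternative run. The number of all genes called in bleomycin WT against saline WT was 1 with RLE scaling, 319 with limma-voom quality weights, 0 on the 8 libraries compared and 81 without saline WT 2 and bleomycin WT 4. In KO against WT it was 1 with DESeq2 and 243 with no filter. In KO against saline WT it was 653 with DESeq2, 1 with RLE scaling, 694 with no filter, 12 with limma-voom, 232 with quality weights, 1 on 8 libraries and 121 without the 2 libraries. Leaving out 1 library at a time gave 1 to 11 genes, 0 genes, and 0 to 18 genes in the 3 comparisons; the highest counts, 11 and 18, came without bleomycin WT 4, and KO against saline WT gave 10 without saline WT 2. The 4 and 3 genes called in the comparisons with saline WT were all higher after bleomycin; with DESeq2, 156 of 588 and 94 of 653 were, and with no filter 358 of 780 and 68 of 694. With 1 library left out, the members' median ranged from 0.21 to 0.59, -0.14 to 0.13 and 0.22 to 0.65.

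Replicate numbers are not stated to pair the libraries, and the correlation of same-numbered deviations was -0.19 to 0.06. With so few libraries a group, some of which stood apart, these correlations cannot exclude a shared batch. A fit with the replicate block called 0 members, 2 genes in bleomycin WT against saline WT and 1 in KO against saline WT.

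Without saline WT 2 and bleomycin WT 4, the sign of 4, 14 and 7 of 33 members turned in the 3 comparisons. Among members given in every library, these log2 fold changes turned under an alternative. Pfkfb4 in bleomycin WT against saline WT was 0.23 with limma-voom and 0.37 with the replicate block, -0.34 to 0.56 with 1 library left out and -0.43 without the 2 libraries. In KO against WT, Hk2, Ldha and Pfkp were 0.45, -0.18 and 0.055 with quality weights; without the 2 libraries Hk2, Ldha and Bnip3l were 0.16, -0.15 and 0.0015. Bnip3l was -1.01 to -0.02 with 1 library left out. With 1 library left out, Hk2 was -1.76 to 0.13, Ldha -0.16 to 0.23, Hif1a -0.40 to 0.11, Aldoa -0.18 to 0.029 and Pfkfb4 -0.034 to 0.33. In KO against saline WT, Pfkfb4 was -0.0047 with DESeq2, -0.012 with RLE scaling, -0.057 with the strict filter, -0.27 with quality weights, -0.26 without the 2 libraries and -0.23 to 0.67 with 1 library left out; Mxi1 was -0.021, -0.040 and -0.046 in the first 3 and -0.070 to 0.45 with 1 left out, and Egln3 -0.55 to 0.065. The cause was not tested. RLE scaling moved the median of all genes from 0.08 to -0.09 in bleomycin WT against saline WT and from 0.04 to -0.12 in KO against saline WT, and the members' median to 0.10 and 0.13.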
